A study of Homo sapiens with 12 samples.

Results

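The genes described here are 10 Krüppel-like factor (KLF) genes, namely KLF2, KLF3, KLF4, KLF5, KLF6, KLF7, KLF9, KLF10, KLF11 and KLF16, chosen by name out of 22784 gene symbols in the expression table. KLF13 is not analysed here, because part of its exon sequence is shared with alternate contigs. All 10 genes passed the filter on low values, which kept 14839 symbols. The RNA came from SK-UT-1, an established human uterine leiomyosarcoma cell line, cultured for 48 h with the DMSO vehicle, with 5 µM JQ1 or with 5 µM I-BET-762. Values were analysed for 3 vehicle, 4 JQ1 and 3 I-BET-762 libraries out of 12 labelled ones. Vehicle replicate 16 and replicate 24 of I-BET-762 have no values in the expression table. The authors state that outlier samples were excluded, without naming them, so the spread between libraries may be that left after such a removal. Every library comes from 1 cell line at 1 dose and 1 time, and nothing in the labels says that the replicates were separate cultures, so the p-values measure the spread between these libraries, which may be technical.

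KLF proteins are transcription factors that bind GC-rich and CACCC-type promoter sequences through zinc fingers at their carboxyl end. The family is commonly divided by the cofactors its members recruit. KLF3 binds the CtBP corepressors, KLF2, KLF4, KLF5, KLF6 and KLF7 act mainly as activators that recruit acetyltransferases such as EP300, and KLF9, KLF10, KLF11 and KLF16 carry a motif that binds the SIN3A corepressor. Several members act in smooth muscle and in the uterus: KLF4 represses contractile genes in vascular smooth muscle, KLF9 is a partner of the progesterone receptor in the endometrium, and KLF11 is known as a progesterone receptor target in uterine leiomyoma cells. JQ1 and I-BET-762 both displace BET proteins from acetylated histones by filling the bromodomain pocket. JQ1 is a thieno-triazolodiazepine and I-BET-762 a benzo-triazolodiazepine, so a thiophene ring in the former stands where the latter has a benzene ring.

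The DNA just upstream of a RefSeq transcription start of 3 of the genes is shown because their transcripts behaved differently in the comparisons that follow: KLF2 was higher with both inhibitors, KLF9 was lower with both, and KLF4 differed most between the inhibitors. Each sequence is 250 bases long and ends at the base before that start (GRCh38.p14), read 5′ to 3′ on the gene's strand. The KLF2 window is chr19:16324576-16324825 on the plus strand, with capitals marking a match to the MEF2 consensus. The KLF4 window is chr9:107489770-107490019 on the minus strand, with capitals marking the E-box CACGTG. It lies inside the annotated span of the gene, whose outermost transcript starts farther upstream, and overlaps none of its exons. The KLF9 window is chr9:70414658-70414907 on the minus strand, with capitals marking the CCAAT box on its reverse strand (ATTGG).
KLF2: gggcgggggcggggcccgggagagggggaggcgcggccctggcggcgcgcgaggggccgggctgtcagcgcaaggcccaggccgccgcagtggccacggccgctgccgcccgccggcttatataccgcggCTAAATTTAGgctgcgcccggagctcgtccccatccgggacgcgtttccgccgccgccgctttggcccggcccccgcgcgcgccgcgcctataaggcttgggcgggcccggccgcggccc
KLF4: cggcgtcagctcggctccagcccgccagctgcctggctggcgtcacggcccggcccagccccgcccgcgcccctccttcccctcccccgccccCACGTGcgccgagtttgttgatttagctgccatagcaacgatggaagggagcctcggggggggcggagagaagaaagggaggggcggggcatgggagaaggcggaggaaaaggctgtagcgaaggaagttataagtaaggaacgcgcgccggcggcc
KLF9: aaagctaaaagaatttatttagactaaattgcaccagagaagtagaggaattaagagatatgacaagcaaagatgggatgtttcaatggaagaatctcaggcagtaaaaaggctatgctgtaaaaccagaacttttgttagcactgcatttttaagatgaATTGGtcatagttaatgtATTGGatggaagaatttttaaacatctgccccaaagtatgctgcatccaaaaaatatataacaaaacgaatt

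The windows differed in base composition. KLF2 had 41 CpG dinucleotides and 80.0% GC, and KLF4 had 25 and 69.2%, against a median of 11 and 58.0% over 35116 RefSeq promoters of the same length. KLF9 had 1 CpG and 32.4% GC. The GC box (GGGCGG on either strand) occurred 4 times in KLF2 and 4 times in KLF4 and was not matched in KLF9, and 42.6% of all promoters held it. CACCC was not matched in KLF2, KLF4 or KLF9, and 54.7% of all promoters held it. The marked MEF2 match in KLF2 lay 120 to 111 bases before the start, and 0.515% of all promoters held one. CACGTG in KLF4 lay 157 to 152 bases before the start (6.35% of all promoters held it), and the KLF9 matches to CCAAT or ATTGG lay 90 to 86 and 72 to 68 bases before the start (32.0% of all promoters). None of the marked matches overlapped a GC box. A match is only a match of letters, and binding of any factor was not measured. The KLF16 window, described without its sequence, had 45 CpG, 86.4% GC and 7 GC boxes. That of KLF5 had 27 CpG, 70.8% GC, 2 GC boxes, 2 CCAAT boxes and 2 CACCC matches, and also lies inside its gene's span. The windows of KLF6, KLF7 and KLF11 include 72, 238 and 180 bases of their own annotated exons and are not shown. In the same order they had 28, 13 and 43 CpG and 72.4%, 58.0% and 78.8% GC. The GC box occurred 2 times in KLF6 and 2 times in KLF11 and was not matched in KLF7. KLF11, lower with both inhibitors like KLF9, was thus close to KLF2 in base composition. A link between base composition and direction of change was not tested. CACGTG also occurred once in the windows of KLF6 and KLF11, and CACCC 2 times in that of KLF7. KLF3 and KLF10 had no entry.

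Depth was similar across the groups, with 35564586 to 38899935 reads on genes under vehicle, 35691648 to 39658989 under JQ1 and 37733027 to 38404998 under I-BET-762. A count of 0 in 1 library allows up to 3 reads, or 2.73 to 3.30 normalized counts. Among the labelled cell type's defining genes, 7 of 9 smooth muscle markers were tested. Their sum with that of MYOCD, which had at most 1 read, was 20500 to 21140 normalized counts with vehicle, 10660 to 11270 under JQ1, and 11820 to 12370 under I-BET-762, and 6 of the 7 fell with each inhibitor, beside 22.8% of all tested genes with JQ1 and 17.9% with I-BET-762. The 5 tested of 6 epithelial markers summed, with CDH1, to 1231 to 1290 with vehicle, 517 to 612 under JQ1, and 507 to 547 under I-BET-762, and 4 of the 5 fell with each, beside the same shares of all genes. The 4 endothelial markers together stayed at or below 7.40 normalized counts in every library, and the 3 leukocyte markers with values at or below 37.0. In bulk RNA, fewer cells of a type and less RNA per cell cannot be told apart, and the part of these markers in the KLF results was not tested.

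Levels of different genes were compared as normalized counts per kilobase (kb) of exon. In vehicle-treated cells the order was KLF6 (754 ± 19.1 normalized counts per kb, SD, n = 3), KLF10 (681 ± 30.3), KLF9 (467 ± 22.6), KLF3 (261 ± 6.63), KLF11 (192 ± 12.2), KLF7 (177 ± 8.15), KLF16 (155 ± 6.56), KLF4 (68.4 ± 3.56), KLF2 (28.4 ± 6.22) and KLF5 (9.56 ± 0.552). Neighbours in this order did not overlap between vehicle libraries, except KLF11 and KLF7. With JQ1, KLF10 stood first at 1568 ± 52.3 (SD, n = 4) and KLF6 second at 824 ± 46.8, KLF11 moved down to the ninth place at 56.4 ± 7.43, and KLF2, KLF4 and KLF7 followed each other at 89.8 ± 30.4, 79.3 ± 14.6 and 76.0 ± 8.59 with overlapping libraries. With I-BET-762, KLF10 also stood first at 1131 ± 114 (SD, n = 3), and KLF11, KLF2 and KLF4 overlapped their neighbours at 72.0 ± 3.24, 59.3 ± 11.5 and 48.2 ± 4.13. KLF5 was lowest in each group.

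The 10 genes were then read as a pool, as each gene's percentage of their summed level per kb. KLF10 made up 24.4 ± 0.734% of the pool with vehicle (SD, n = 3), 45.9 ± 2.09% with JQ1 (n = 4) and 38.9 ± 2.10% with I-BET-762 (n = 3). KLF9 went from 16.7 ± 0.469% with vehicle to 6.64 ± 0.255% with JQ1 and 9.36 ± 1.26% with I-BET-762. KLF6 had 27.0 ± 0.0529%, 24.1 ± 1.20% and 25.8 ± 0.636% in the same order of groups. The largest share thus belonged to KLF6 in the vehicle libraries and to KLF10 in the treated ones. The summed level itself was 2715 to 2844 normalized counts per kb with vehicle, 3373 to 3489 under JQ1, and 2786 to 3069 under I-BET-762. These shares are descriptions of the libraries and were not tested.

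**Figure D1:**
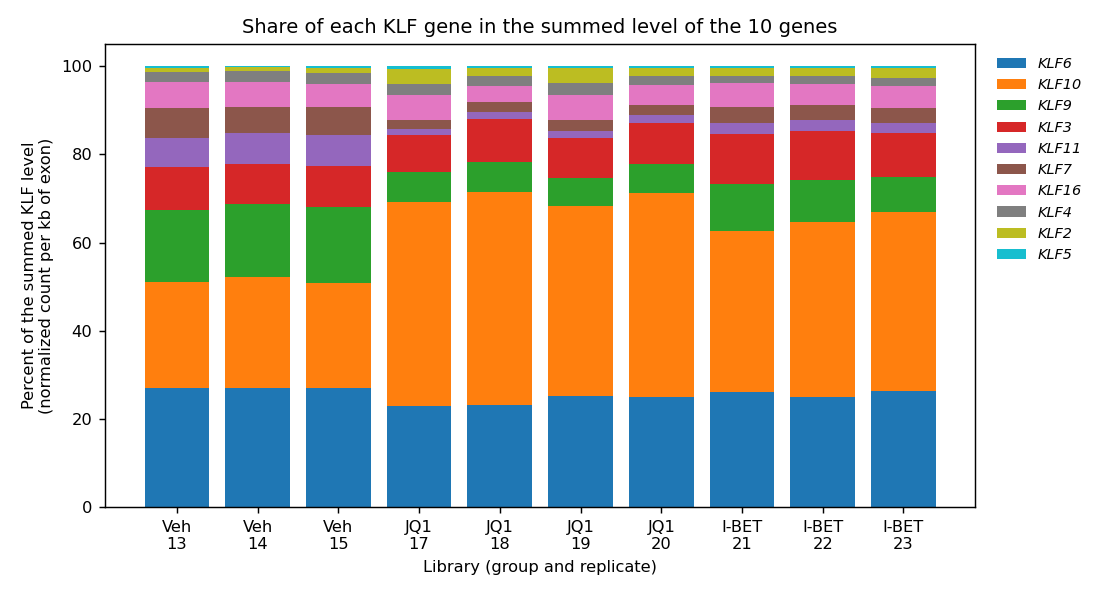
Share of each of the 10 KLF genes in their summed level (percent, vertical axis, from normalized counts per kb of exon) in each library (horizontal axis, group and replicate number). KLF10 takes 24.4% on average with vehicle, 45.9% with JQ1 and 38.9% with I-BET-762.

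To ask which KLF transcripts changed with BET inhibition, each inhibitor was compared with vehicle by limma, and p-values were adjusted by Benjamini-Hochberg across all 14839 tested genes. Calls of a change required both an adjusted p-value below 0.05 and more than a 1.5-fold difference. With JQ1, 3 of 10 members rose (KLF2, KLF5 and KLF10), beside 13.3% of all tested genes, and 3 fell (KLF7, KLF9 and KLF11), beside 22.8%. With I-BET-762, 2 rose (KLF2 and KLF10), beside 8.96%, and the same 3 fell, beside 17.9%. By the adjusted p-value alone, in either direction, 8 members passed with JQ1 and 7 with I-BET-762, where 71.7% and 61.1% of all tested genes did so. Of the 8 with JQ1, KLF3 (adjusted p = 0.217, limma) and KLF6 (0.401) were lost under equal totals, and KLF6 also under equal upper quartiles and without any 1 of the vehicle libraries, among others. The members had a median log2 fold change of 0.16 under JQ1 and -0.05 under I-BET-762, beside 0.01 and -0.00 over all tested genes. Both comparisons use the same vehicle libraries.

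**Figure D2:**
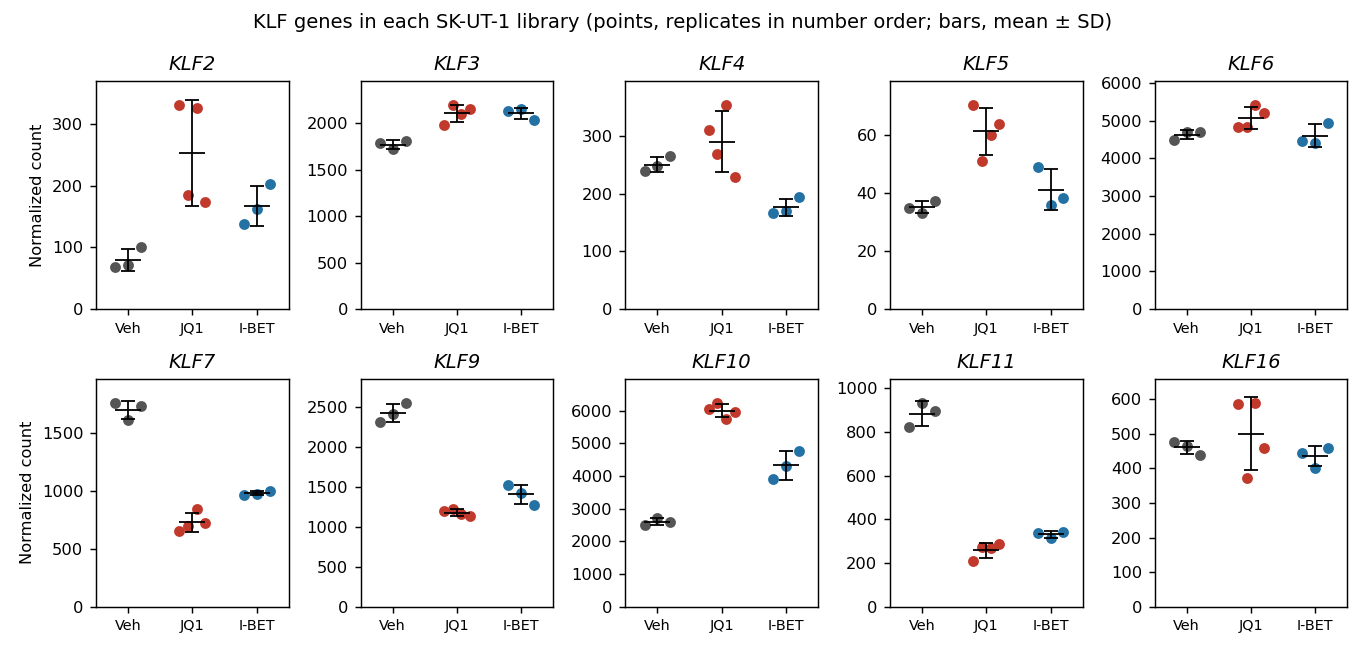
Normalized count (vertical axis, linear, starting at 0) of each KLF gene in each library, by group (Veh, vehicle). Points are libraries and bars are the mean ± SD over 3 vehicle, 4 JQ1 and 3 I-BET-762 libraries. The treated libraries lie below the vehicle libraries for KLF7, KLF9 and KLF11 and above them for KLF2, KLF3 and KLF10.

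Among the activators, KLF2, which maintains endothelial and T-cell quiescence, rose most. Its normalized counts were 67.8, 72.1 and 100.1 in vehicle replicates 13, 14 and 15. They were 329.6, 185, 325 and 173 in JQ1 replicates 17, 18, 19 and 20, and 138, 162 and 202 in I-BET-762 replicates 21, 22 and 23. All treated libraries lay above all vehicle libraries, and the JQ1 libraries fell into a high and a low pair, with the low pair inside the I-BET-762 range. KLF2 was 3.05-fold higher with JQ1 (log2 fold change 1.61 ± 0.22, SE, adjusted p = 8.31e-06, limma) and 2.08-fold higher with I-BET-762 (1.06 ± 0.24, adjusted p = 0.0012, limma). The gene has 3 exons at chr19:16324826-16328685 (hg38, Gencode V44), with 70 to 110 reads per vehicle library.

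KLF4, which represses contractile genes in smooth muscle and is one of the pluripotency factors, responded differently to the inhibitors. The vehicle libraries gave 239, 248 and 265 normalized counts. The JQ1 libraries gave 311, 269, 353 and 229, which spanned the vehicle range, and the I-BET-762 libraries gave 166, 169 and 194, all below it. With JQ1 the log2 difference from vehicle was 0.20 ± 0.13 (SE, adjusted p = 0.18, limma), with a 95% confidence interval of -0.08 to 0.47. With I-BET-762 it was -0.51 ± 0.14 (adjusted p = 0.00441), a 1.42-fold lower level that stayed under the 1.5-fold threshold. The gene lies at chr9:107484852-107490482 on the minus strand, and 357 bases of its exons overlap an antisense long noncoding RNA of the annotation. Libraries were strand-specific, but the strand setting of the counting is not given in the sources used here.

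KLF5, an activator of proliferation genes in epithelium and in phenotypically modulated smooth muscle, was the member with the fewest reads, 36 to 64 per library across the groups. It had 34.9, 33.3 and 37.3 normalized counts with vehicle. With JQ1 it had 70.3, 51.1, 60.0 and 63.9, and with I-BET-762 49.2, 36.1 and 38.4. The JQ1 libraries all lay above the others, while those of I-BET-762 overlapped vehicle. KLF5 rose 1.72-fold with JQ1 (log2 fold change 0.78 ± 0.18, SE, adjusted p = 0.0012, limma), and its log2 difference with I-BET-762 was 0.21 (95% confidence interval -0.20 to 0.63, adjusted p = 0.361).

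KLF6, an activator named as a tumor suppressor in prostate, was the most abundant member in vehicle-treated cells and moved little. It had 4493, 4689 and 4702 normalized counts with vehicle, 4824, 4822, 5401 and 5196 with JQ1, and 4470, 4395 and 4948 with I-BET-762. The JQ1 libraries lay just above the vehicle libraries, a difference of 0.13 ± 0.05 on the log2 scale (SE, adjusted p = 0.0472, limma), or 1.09-fold. With I-BET-762 the log2 difference was -0.01 (95% confidence interval -0.13 to 0.12). The gene is at chr10:3775996-3785281 on the minus strand.

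KLF7, an activator best known from neuronal development, fell with both inhibitors. Vehicle replicates 13, 14 and 15 had 1760, 1613 and 1735 normalized counts. JQ1 replicates 17 to 20 had 654, 697, 846 and 724, and I-BET-762 replicates 21 to 23 had 968, 977 and 1002. The 3 groups did not overlap, with JQ1 lowest. The decrease was 2.34-fold with JQ1 (log2 fold change -1.23 ± 0.08, SE, adjusted p = 6.42e-10, limma) and 1.73-fold with I-BET-762 (-0.79 ± 0.08, adjusted p = 4.65e-07, limma). KLF7 is the longest gene of the set, 99720 bases on chromosome 2 (chr2:207074137-207173856), and 67 bases of its exons overlap the antisense gene MYOSLID, which had at most 22.2 normalized counts.

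Among the SIN3A-binding members, KLF11, a TGF-beta-inducible repressor, changed most. It had 821, 931 and 896 normalized counts with vehicle. The counts were 209.9, 272, 267 and 288 with JQ1 and 339, 314 and 341 with I-BET-762, again as 3 groups that did not overlap. KLF11 fell 3.42-fold with JQ1 (log2 fold change -1.77 ± 0.10, SE, adjusted p = 2.24e-10, limma) and 2.66-fold with I-BET-762 (-1.41 ± 0.11, adjusted p = 1.71e-08, limma). This was the largest mean absolute change of the 10 members. The gene lies at chr2:10042849-10054836 on the plus strand, and 416 bases of its exons overlap an antisense long noncoding RNA.

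KLF10, also induced by TGF-beta and, like KLF11, a repressor of SMAD7 in textbook accounts, moved in the opposite direction. Its counts rose from 2492, 2723 and 2594 with vehicle to 6040, 6227, 5746 and 5953 with JQ1. With I-BET-762 they were 3896, 4306 and 4768, between the other groups and without overlap. KLF10 was 2.30-fold higher with JQ1 (log2 fold change 1.20 ± 0.06, SE, adjusted p = 6.18e-11, limma) and 1.66-fold higher with I-BET-762 (0.73 ± 0.06, adjusted p = 1.08e-07, limma). It lies on the minus strand at chr8:102648784-102655725. The JQ1 libraries were tight for this gene, with a log2 SD of 0.05, lower than that of all but 7.53% of tested genes. They were as tight for KLF9 (0.05, all but 7.51%), and the genes compared were not matched on level.

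KLF9, a partner of the progesterone receptor in endometrium and a glucocorticoid-induced gene, fell with both inhibitors. It had 2316, 2418 and 2550 normalized counts with vehicle, 1202, 1222, 1161 and 1135 with JQ1, and 1521, 1422 and 1278 with I-BET-762. Each JQ1 library was below each I-BET-762 library, and these were below each vehicle library. The decrease was 2.06-fold with JQ1 (log2 fold change -1.04 ± 0.06, SE, adjusted p = 4.53e-10, limma) and 1.73-fold with I-BET-762 (-0.79 ± 0.07, adjusted p = 5.76e-08, limma). KLF9 has 2 exons at chr9:70384604-70414657.

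KLF16, a repressor of metabolic and dopamine receptor genes, did not pass the test in either comparison. It had 478, 466 and 439.5 normalized counts with vehicle, 585, 371, 588 and 457 with JQ1, and 445, 402 and 459 with I-BET-762. The JQ1 libraries spread on both sides of the vehicle range. The log2 difference from vehicle reached 0.09 with JQ1 (95% confidence interval -0.18 to 0.37, adjusted p = 0.528, limma) and -0.08 with I-BET-762 (-0.38 to 0.21, adjusted p = 0.615). Its exons at chr19:1852399-1863579 overlap an antisense long noncoding RNA by 483 bases.

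KLF3, the CtBP-binding repressor that restrains fat cell and B-cell programs, was higher by the adjusted p-value alone and stayed under 1.5-fold. Vehicle libraries had 1785, 1720 and 1806 normalized counts, against 1986, 2191, 2098 and 2148 with JQ1 and 2128, 2148 and 2040 with I-BET-762. The treated libraries lay above all vehicle libraries and the I-BET-762 range lay inside the JQ1 range. The level was 1.19-fold higher with each inhibitor (log2 fold change 0.25 ± 0.05, SE, adjusted p = 0.000309 with JQ1 and 0.25 ± 0.05, adjusted p = 0.000753 with I-BET-762, limma). The gene, at chr4:38664197-38701517, shares 265 bases of exon with the antisense KLF3-AS1.

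When libraries were scaled to the same total, the median log2 fold change of all tested genes was -0.17 (JQ1) and -0.10 (I-BET-762), against 0.01 and -0.00 as normalized by the authors, and there the small difference of KLF6 and of KLF16 with JQ1 turned to -0.06 and -0.09, while the members called above kept their direction. Under the same scaling KLF4 passed the fold threshold with I-BET-762, at -0.60.

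**Figure D3:**
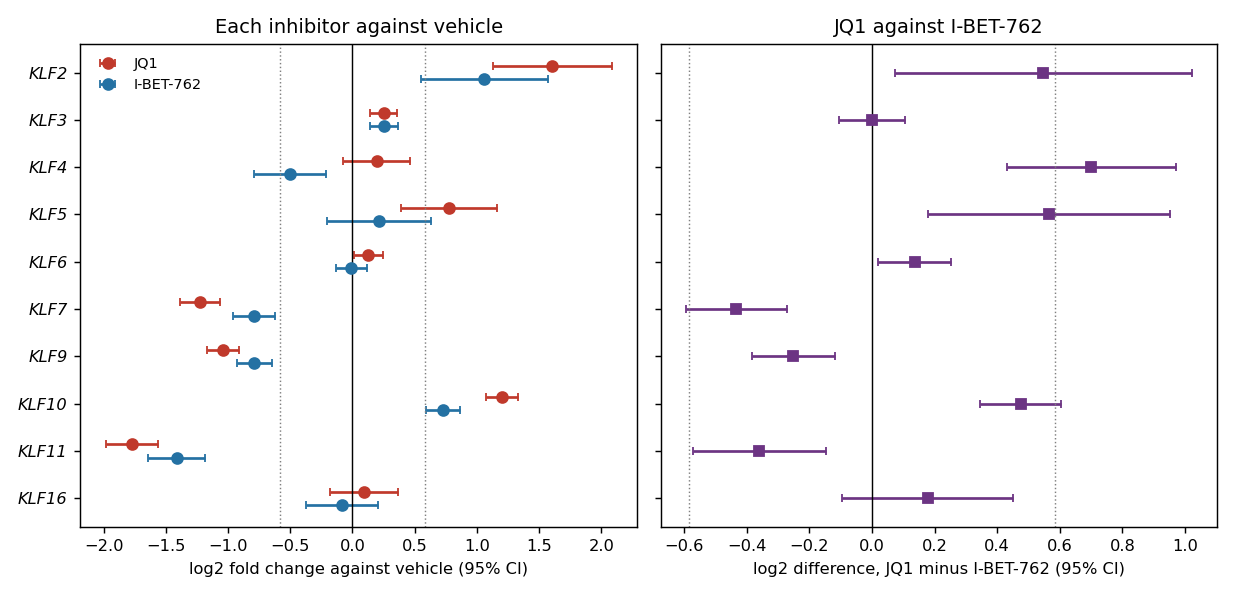
Left, log2 fold change (horizontal axis) of each KLF gene with JQ1 and with I-BET-762 against vehicle. Right, the log2 difference between JQ1 and I-BET-762. Points are limma estimates over 3 vehicle, 4 JQ1 and 3 I-BET-762 libraries, bars are 95% confidence intervals and dotted lines mark 1.5-fold. KLF4 has the largest difference between the compounds, 0.70.

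JQ1 and I-BET-762 were compared directly at the matched dose of 5 µM and the matched time of 48 h, as 1 pair of compounds over the 10 genes with p-values adjusted over all tested genes. KLF4 alone passed both thresholds: it was 1.62-fold higher with JQ1 (log2 difference 0.70, 95% confidence interval 0.43 to 0.97, adjusted p = 0.00089, limma), and 1.73% of tested genes were called higher with JQ1. In the other direction 3.59% of tested genes and 0 of the members were called by limma, also with limma-voom on recovered reads, although 3 members had an unadjusted p under 0.05 there. By the adjusted p-value alone, 6 members differed between the compounds, beside 27.3% of tested genes. These were KLF4, KLF5 and KLF10, which were higher with JQ1, and KLF7, KLF9 and KLF11, which were lower. Under some alternatives KLF5 (adjusted p up to 0.152, limma), KLF9 (up to 0.0625) and KLF11 (up to 0.0701) no longer passed: KLF5 under equal totals and without some single libraries, KLF9 without I-BET-762 replicate 21, and KLF11 without I-BET-762 replicate 21 or 23.

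For KLF10 the JQ1 level was 1.39-fold above that of I-BET-762 (log2 difference 0.48, 95% confidence interval 0.35 to 0.60, adjusted p = 4.52e-05, limma). For KLF7 it was 1.35-fold lower (-0.43, interval -0.59 to -0.27, adjusted p = 0.000643), for KLF11 1.28-fold lower (-0.36, interval -0.57 to -0.15, adjusted p = 0.0143) and for KLF9 1.19-fold lower (-0.25, interval -0.38 to -0.12, adjusted p = 0.00771). In these 4 genes, and in KLF5, no JQ1 library overlapped an I-BET-762 library. The share of all tested genes without such overlap was not counted, so this describes the libraries and sets no member apart. KLF5 differed by 0.57 (interval 0.18 to 0.95, adjusted p = 0.0308), just under the 1.5-fold threshold. It passed both thresholds without JQ1 replicate 18 (0.65, adjusted p = 0.0167, limma) or without I-BET-762 replicate 21 (0.70, adjusted p = 0.0285, limma). For the members called with at least 1 inhibitor, then, the estimate with JQ1 was farther from vehicle than that with I-BET-762. KLF5 was called with JQ1 only, and choosing members by their calls favours this outcome. Without regard to calls, 8 of the 10 members had the larger absolute change with JQ1. Over all tested genes JQ1 also gave more calls, 13.3% higher and 22.8% lower, against 8.96% and 17.9% with I-BET-762.

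The other 4 members did not differ between the compounds by the test. The interval for KLF2 ran from 0.07 to 1.02 around 0.55, a difference of 1.46-fold. It did not pass after adjustment over all tested genes (adjusted p = 0.0822, limma). KLF6 differed by 0.14 (interval 0.02 to 0.25, adjusted p = 0.0772) and KLF16 by 0.18 (interval -0.10 to 0.45, adjusted p = 0.329). KLF3 gave -0.00 with an interval of -0.11 to 0.11 (adjusted p = 0.996).

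KLF2, KLF16 and KLF4 varied most among the JQ1 libraries. The log2 SD over the 4 libraries was 0.50 for KLF2, above that of 91.7% of tested genes, 0.32 for KLF16 (82.9%) and 0.27 for KLF4 (78.7%), against a median of 0.13. In all 3 genes JQ1 replicates 17 and 19 lay above the JQ1 mean and replicates 18 and 20 below it. For KLF2 the deviations were 0.44, -0.39, 0.42 and -0.48 on the log2 scale in replicates 17, 18, 19 and 20. Across all genes, replicates 17 and 19 were the closest JQ1 pair, with a chi-square per gene of 5.38, against 12.59 to 22.12 for the other JQ1 pairs.

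The same 3 genes have the GC-richest longest transcripts of the set, 61.2% for KLF2, 67.8% for KLF16 and 55.9% for KLF4, against 41.1% to 47.2% for the other 7. In JQ1 replicate 18, the GC-richest quintile of tested genes (58.0% to 83.9% GC) deviated from the JQ1 mean by a median of -0.15, and the GC-poorest quintile by 0.12. In replicates 17 and 19 the GC-richest quintile deviated by 0.05 and 0.07 and the GC-poorest by -0.03 and -0.02. In replicate 20 these medians were 0.03 and -0.07, and KLF2 was lowest there. KLF2 and KLF16 belong to the GC-richest quintile, and KLF4 to quintile 4 (51.4% to 58.0% GC). Quintile 4 deviated by medians of -0.014, -0.048, 0.003 and 0.061 in replicates 17, 18, 19 and 20. KLF4 itself deviated by 0.116, -0.094, 0.299 and -0.322, with the opposite sign in replicates 17 and 20. The part of GC content in the KLF results was not tested.

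**Figure D4:**
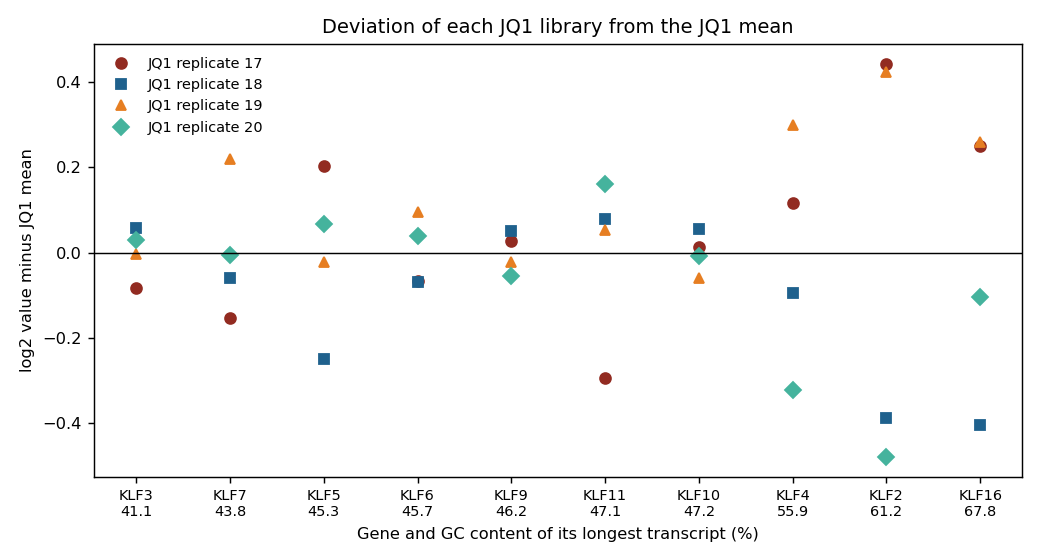
Deviation of each JQ1 library from the mean of the 4 JQ1 libraries (log2, vertical axis) for each KLF gene, ordered along the horizontal axis by the GC content of its longest transcript (percent, printed below the gene). Replicates 17 and 19 lie above the mean and 18 and 20 below it for KLF4, KLF2 and KLF16.

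In alternatives chosen after seeing the data, the JQ1 pair above the mean for KLF2, KLF4 and KLF16 or the pair below it was left out. That choice itself fixes the direction of the shifts in these genes and lowers their spread. Without JQ1 replicates 17 and 19, KLF2 was called higher with JQ1 than with vehicle, with a log2 fold change of 1.17, and without replicates 18 and 20 it was 2.04. KLF4 against I-BET-762 was 0.49 without replicates 17 and 19 (adjusted p = 0.0109, limma), under the fold threshold, and 0.91 without 18 and 20. The KLF16 difference between JQ1 and vehicle was -0.16 without the former pair and 0.35 without the latter. Leaving out replicate 18 alone brought the KLF2 difference between the compounds to 0.68 (adjusted p = 0.0278) and leaving out replicate 20 to 0.71 (adjusted p = 0.0248), both past the thresholds.

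Genes with a pattern like that of KLF11, the member with the largest mean change, were sought by the root mean square distance of log2 values, centred on the vehicle mean, over the 7 treated libraries. Of 14829 genes compared, the nearest were APOL1 (distance 0.10, log2 fold changes -1.83 with JQ1 and -1.51 with I-BET-762), MYH15 (0.10, -1.75 and -1.45) and PRSS23 (0.12, -1.72 and -1.43). For KLF4, the member with the largest difference between compounds, genes near to it were MIR9-1HG (0.14, 0.15 and -0.45) and GBX2 (0.18, 0.29 and -0.38). These are likenesses of level changes over 7 libraries and nothing more.

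The remaining family was described from a list of 16 other KLF and SP genes, of which 9 were tested. SP proteins share the zinc fingers of the KLFs. With JQ1, 2 of the 9 rose and 3 fell, beside 13.3% and 22.8% of all tested genes. The counts under I-BET-762 were 1 higher and 3 lower, beside 8.96% and 17.9%. The list median was 0.05 and 0.22 on the log2 scale, also with KLF8 at its bound. SP1, the general GC box activator, had the highest level of them per kb of exon. In normalized counts SP3 was higher, at 10170 with vehicle, 12270 with JQ1 and 12000 with I-BET-762. SP1 was 8776 ± 16.8 normalized counts with vehicle (SD, n = 3), 6373 ± 420.3 with JQ1 (n = 4) and 7338 ± 57.6 with I-BET-762 (n = 3). Its log2 difference of -0.46 ± 0.05 (SE, adjusted p = 5.02e-07, limma) and -0.26 ± 0.05 stayed under 1.5-fold. With JQ1 it was called under equal totals (-0.65).

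SP4, a neuronal GC box activator, rose from 903 ± 41.1 normalized counts (SD, n = 3) to 1526 ± 49.0 with JQ1 (n = 4) and 1516 ± 21.5 with I-BET-762 (n = 3), a log2 fold change of 0.76 and 0.75. Under equal totals its JQ1 value was 0.57, and that call was lost. KLF17, a germ-cell and early-embryo member, fell from 81.1 ± 5.46 to 10.9 ± 4.25 and 16.8 ± 3.42, a log2 fold change of -2.88 ± 0.31 (SE, adjusted p = 4.36e-07, limma) and -2.22 ± 0.33 (adjusted p = 2.6e-05, limma). KLF8, a CtBP-binding repressor like KLF3, had 11 to 19 reads per vehicle library, at most 1 read per JQ1 library and 0 reads in each I-BET-762 library. Against a floor of 3 reads per library it was at least 3.99-fold lower with JQ1 and at least 4.38-fold lower with I-BET-762.

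KLF14, a SIN3A-binding member with 8 to 27 reads per library, rose with JQ1 from 9.35 ± 1.93 normalized counts (SD, n = 3) to 21.7 ± 3.84 (n = 4), a log2 fold change of 1.14 ± 0.30 (SE, adjusted p = 0.0028, limma). With I-BET-762 it had 15.9 ± 4.67, and its log2 difference of 0.68 missed the threshold (adjusted p = 0.0742), except with no intensity trend or without I-BET-762 replicate 21. The untested genes of the list, KLF1, KLF12, KLF18, SP5, SP7, SP8 and SP9, had at most 9 reads in any library.

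**Figure D5:**
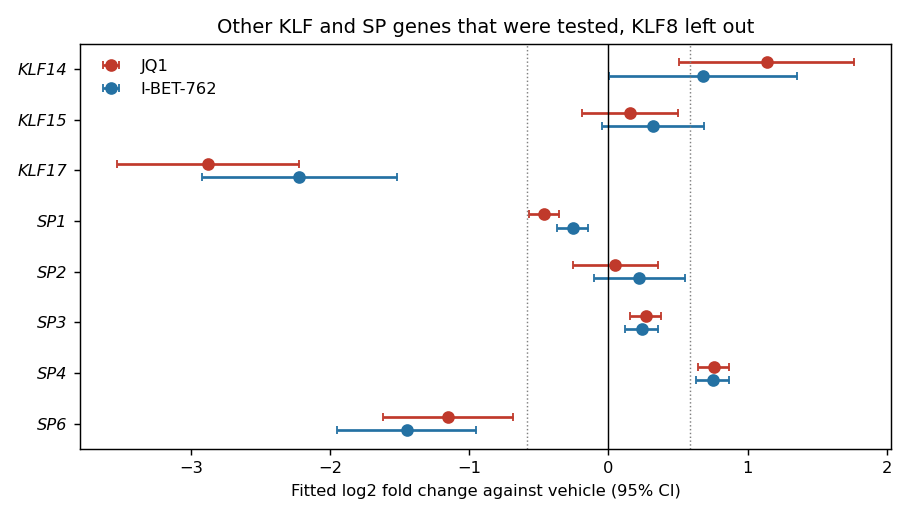
Fitted log2 fold change against vehicle (horizontal axis) with JQ1 and with I-BET-762 of 8 other KLF and SP genes. KLF8 is left out, since its treated libraries had at most 1 read. Points are limma estimates, bars 95% confidence intervals and dotted lines 1.5-fold. SP4 lies to the right with both inhibitors (0.76 and 0.75) and KLF17 to the left (-2.88 and -2.22).

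Cofactors and upstream regulators of the KLFs were followed as lists. Of 14 tested corepressors and coactivators, limma called 1 lower with JQ1, beside 22.8% of all tested genes. With I-BET-762 limma called 0 changed, where 8.96% of all tested genes were higher and 17.9% lower. There limma-voom also called 0, and 9 had an unadjusted p under 0.05 (6 higher and 3 lower). The called gene was CREBBP, an acetyltransferase, at 1913 ± 330.2 normalized counts with vehicle (SD, n = 3), 1092 ± 142 with JQ1 (n = 4) and 1396 ± 55.6 with I-BET-762 (n = 3), a log2 fold change of -0.81 ± 0.11 (SE, adjusted p = 4.02e-06, limma) and -0.44 ± 0.11. The deacetylase HDAC1, the cofactor with the highest level per kb averaged over all 10 libraries (RBBP7 was higher with vehicle), differed by 0.17 and 0.19 on the log2 scale, and by -0.01 with JQ1 under equal totals. Under equal totals, and equal upper quartiles, RBBP4, a chromatin-binding subunit of the same complexes, was also called lower with JQ1 (-0.71 under equal totals, against -0.52 without rescaling), which makes 2. The list had a median change of 0.15 under JQ1 and 0.13 under I-BET-762.

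Among 5 ubiquitin ligases and kinases that act on KLF proteins, 1 rose with JQ1 (13.3% of all tested genes did). FBXW7, a ligase subunit that targets KLF2 and KLF5 for degradation, rose with JQ1 by 0.60 ± 0.05 on the log2 scale (SE, adjusted p = 1.39e-08, limma), just past 1.5-fold, and was 0.50 higher with I-BET-762. GSK3B, the kinase that marks substrates for FBXW7, was 0.54 and 0.58 higher, just under the threshold, and was called with I-BET-762 without vehicle replicate 13 or I-BET-762 replicate 21. The FBXW7 call was lost under equal totals, equal upper quartiles, and without vehicle replicate 13 or JQ1 replicate 18. With I-BET-762 limma called 0 of the 5, where 8.96% of all tested genes were higher and 17.9% lower. There limma-voom also called 0, and 4 had an unadjusted p under 0.05.

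In the MEK5-ERK5-MEF2 cascade, which induces KLF2 and KLF4 in endothelium, 6 of 7 genes were tested and 1 fell with JQ1, beside 22.8% of all tested genes. This was MAP2K5, which encodes MEK5, at 286 ± 36.5 normalized counts with vehicle (SD, n = 3), 165 ± 5.62 with JQ1 (n = 4) and 205 ± 7.90 with I-BET-762 (n = 3), a log2 fold change of -0.78 ± 0.10 (SE, adjusted p = 3.59e-06, limma) and -0.47 ± 0.11. With I-BET-762 limma called 0 of the 6, where 8.96% of all tested genes were higher and 17.9% lower. There limma-voom also called 0, and by an unadjusted p under 0.05 1 gene was higher and 3 were lower. MAPK7, which encodes ERK5, was at -0.47 with JQ1 and became a second called gene under equal totals (-0.66), so that 2 were lower. MAP3K3, with the highest level per kb averaged over all 10 libraries (MAP3K2 was higher with vehicle), differed by 0.16 and 0.33, and by -0.02 with JQ1 under equal totals. MEF2C, the family member that had too few reads to test, reached 4 reads at most.

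Of 9 TGF-beta and SMAD genes, the pathway that induces KLF10 and KLF11, 4 fell with JQ1 (22.8% of all tested genes did) and 3 with I-BET-762 (17.9%). The ligand TGFB3 fell from 303 ± 19.2 normalized counts (SD, n = 3) to 68.9 ± 10.9 with JQ1 (n = 4) and 75.8 ± 18.7 with I-BET-762 (n = 3), a log2 fold change of -2.13 and -2.01. TGFB2 fell from 1532 ± 46.5 to 420.3 ± 40.2 and 709 ± 23.9, a log2 fold change of -1.87 and -1.11. It was the 1 gene of the list past both thresholds between the compounds (-0.76, adjusted p = 4.31e-06, limma), where 3.59% of all tested genes were lower with JQ1. The remaining ligand, TGFB1, was not called, with 0.49 with JQ1 (adjusted p = 0.00503, limma) and 0.03 with I-BET-762. It was called higher with JQ1 without vehicle replicate 13 or JQ1 replicate 18. TGFBR1, the type I receptor with the highest level per kb, was -0.14 and -0.07 from vehicle. The receptor TGFBR2 fell with both inhibitors (-0.70 and -0.84) and SMAD3 with JQ1 (-0.74), while its -0.56 with I-BET-762 stayed under 1.5-fold but passed it under equal totals (-0.66) and equal upper quartiles (-0.60).

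The glucocorticoid receptor induces KLF9, and 4 related genes were followed. With each inhibitor 1 of the 4 rose and 1 fell, where 13.3% and 22.8% of all tested genes did so with JQ1 and 8.96% and 17.9% with I-BET-762. The receptor gene NR3C1 stayed under 1.5-fold, at -0.58 with JQ1 (adjusted p = 1.44e-07, limma) and -0.43 with I-BET-762 (adjusted p = 1.59e-05). With JQ1 it lay at the threshold and was called under equal totals (-0.77), equal upper quartiles, and without vehicle replicate 13 or JQ1 replicate 18, where 2 of the 4 were lower. PER1 differed by 0.23 and 0.22 and was not called. FKBP5, a receptor co-chaperone, rose from 2696 ± 78.2 normalized counts (SD, n = 3) to 4925 ± 102 with JQ1 (n = 4) and 4078 ± 176 with I-BET-762 (n = 3), a log2 fold change of 0.87 and 0.60. TSC22D3, which encodes GILZ, fell by 0.67 and 0.70 on the log2 scale. FKBP5 and TSC22D3, both receptor targets, thus moved in opposite directions. The call of FKBP5 with I-BET-762 was lost under equal totals, equal upper quartiles, and without vehicle replicate 13, I-BET-762 replicate 22 or replicate 23.

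Of 15 genes reported elsewhere as KLF targets, 12 were tested. With JQ1 5 rose and 4 fell, beside 13.3% and 22.8% of all tested genes, while under I-BET-762 the calls were 3 higher and 4 lower, beside 8.96% and 17.9%. CDKN1A, the cell cycle inhibitor p21 that KLF4 and KLF6 can activate, rose from 254.5 ± 29.9 normalized counts (SD, n = 3) to 1389 ± 16.7 with JQ1 (n = 4) and 593 ± 41.2 with I-BET-762 (n = 3), a log2 fold change of 2.45 ± 0.08 (SE, adjusted p = 3.98e-13, limma) and 1.22 ± 0.08 (adjusted p = 6.7e-09, limma). PLAU, the urokinase gene, rose by 1.39 and 1.03 on the log2 scale and had the highest level per kb of the list. TAGLN, a contractile gene that KLF4 represses in smooth muscle, fell from 1599 ± 46.0 to 126 ± 14.5 and 157 ± 11.7, a log2 fold change of -3.67 and -3.35. MAOA, a KLF11 target, fell by 2.29 and 1.37 on the log2 scale. The list had a median of 0.23 under JQ1 and 0.05 under I-BET-762. TAGLN is also among the smooth muscle markers counted above.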

How the data were processed

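RNA-seq of SK-UT-1 cells gave 1 table for 10 of 12 labelled libraries. Per the submitters' processing notes, reads passed FastQC 0.73 and Trimmomatic, were aligned to hg38 with HISAT2 2.2.1, counted with featureCounts 2.0.3 and normalized with DESeq2. The values as deposited by the authors are log2 of the normalized count plus 1. Undoing the log2 gave whole multiples of 1 step for 99.77% to 99.79% of values per library (tolerance 0.1 read), which returned reads. Depth was 35564586 to 39658989 reads on genes, and limits cover counting error only.

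Libraries were grouped by the labelled treatment. Genes with a normalized count of at least 10 in at least 3 libraries were fitted with limma 3.58.1 (R 4.3.3), with an intensity trend, all 10 libraries together and Benjamini-Hochberg adjustment. The code was tested on simulated data. Tables and figures used Python 3.11.15, numpy 2.4.6, pandas 2.3.3 and matplotlib 3.10.9. Exon lengths are unions of Gencode V44 exons. Of 629 exon stretches of 75 bases from the members, none had an exact copy elsewhere. GC content could be matched for 97.7% of tested genes. Promoters are from RefSeq, and the MEF2 match and the other motifs were searched on both strands.

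The members and lists were chosen with earlier results of these data known. From each list of other genes the text names the highest per kb on average over all libraries and at most 2 largest rises and 2 largest falls among called genes by mean log2 fold change. RBBP4, MAPK7, TGFB1, TGFBR2, SMAD3, MEF2C, NR3C1 and PER1 were named after their values were seen. Alternatives changed pseudocount, filter, scaling, trend, groups fitted, tool and fold threshold, and left out each library. A gene among those nearest in pattern to KLF4 is not reported here.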

Additional observations from a re-analysis of the deposited data

How the results depend on the processing

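With pseudocounts of 0.5 and 5, every gene above 0, a mean of at least 100, either rescaling, no intensity trend, only the compared groups or limma-voom on recovered reads, each count of KLF members called stayed within 1.5 times. It differed in 2 cases: 2 in place of 3 were higher with JQ1 at a mean of at least 100, a filter that KLF5 did not pass, and 4 in place of 3 were lower with I-BET-762 under equal totals, KLF4 being added. With no fold threshold, 5 members were higher with JQ1 than vehicle, and 3 were higher and 3 lower with JQ1 than with I-BET-762. At a fold over 2, 1 was higher and 1 lower with I-BET-762 than vehicle, and 0 were higher with JQ1 than I-BET-762. Leaving out each library in turn kept 3 higher and 3 lower with JQ1 and 2 higher and 3 lower with I-BET-762. The count higher with JQ1 than I-BET-762 ranged from 1 to 3 (3 without JQ1 replicate 18, 2 without JQ1 replicate 20 and 2 without I-BET-762 replicate 21). After seeing the data, 2 further alternatives left out the pairs of JQ1 libraries described above, a choice that fixes the direction of the shifts in KLF2, KLF4 and KLF16. That count was 0 without JQ1 replicates 17 and 19 and 3 without JQ1 replicates 18 and 20.

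Of the single log2 fold changes, 14 reversed, and none of these was called in the comparison in which it reversed. Under equal totals KLF6 and KLF16 with JQ1 became -0.058 and -0.092. Without JQ1 replicates 17 and 19, KLF4 and KLF16 with JQ1 became -0.013 and -0.161, and against I-BET-762 KLF16 became -0.077 and KLF3 0.044. KLF6 with I-BET-762 became 0.001 and 0.003 without vehicle replicates 14 and 15, and 0.011 and 0.023 without I-BET-762 replicates 21 and 22, over a range of -0.062 to 0.023 among libraries left out. KLF3 between the compounds became 0.027 and 0.001 without JQ1 replicates 17 and 19 in turn, and 0.008 and 0.014 without I-BET-762 replicates 21 and 22, over a range of -0.023 to 0.027. The cause was not tested. Another 651 were the same, 16 newly passed the thresholds and 6 no longer did. Part of these changes came from the altered fold threshold alone, with the same estimate and p-value. The 651 include fits without a library of a group outside the comparison, where the estimate cannot move. With the longest transcript as length, 17 of 30 levels per kb moved by more than 1 SD, and KLF2 and KLF4 changed places in the order with each inhibitor.

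Of the counts over gene lists, 891 stayed within 1.5 times and 75 moved further, among them those named beside their lists.

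No paired analysis was possible because the replicate numbers 13 to 24 are all different. Differences in KLF5 rest on 36 to 64 reads and in KLF14 on 8 to 27.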
